A study of Mus musculus with 12 samples.

Results

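A17α-MHCKO hearts were compared with A17fl/fl hearts after normal saline (NS), so that the genotypes were set side by side in mice that received no doxorubicin. The comparison holds the 3 A17α-MHCKO + NS libraries and the 3 A17fl/fl + NS libraries, 6 of the 12 RNA sequencing libraries of the study, over all genes, and each of the 6 was also left out in turn. The remaining 6 libraries come from the same genotypes after doxorubicin (DOX), an anthracycline. In A17fl/fl mice Adam17 carries loxP sites on both alleles, and in their A17α-MHCKO littermates Cre recombinase is driven by the α-MHC promoter, which is active in cardiomyocytes, and removes exon 2 there. Both groups had the floxed alleles, were male and were 8 weeks old at the start. They received 4 intraperitoneal injections of saline on days 0, 7, 14 and 21. The floxed line had a C57BL/6J background, and the background of the line that brought in Cre was not stated. The study describes the samples as left ventricular, taken 4 weeks after the last injection. Fibroblasts, vessels and blood cells of an A17α-MHCKO heart keep an intact Adam17, and a group with Cre but without the floxed alleles was not among the samples.

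ADAM17, also called TACE, is a membrane-bound metalloprotease that cuts TNF-α, both TNF receptors, ligands of the EGF receptor and many other proteins from the cell surface, a step called shedding. The iRhom proteins carry it to the surface, furin removes its prodomain and TIMP3 inhibits it. Released TNF-α acts through its receptors, TRAF adaptors and the kinase TAK1 on NF-κB and the MAP kinases, and in the stressed heart it is known for its part in inflammation, remodeling and cell death.

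Each of the 6 NS libraries held between 15971431 and 21725076 counted fragments. Levels are given as CPM, a gene's counts relative to the total of its library, scaled by the TMM method of edgeR, and a log2 fold change is the level in A17α-MHCKO + NS minus that in A17fl/fl + NS hearts. Tests are edgeR's quasi-likelihood tests, two-sided, and a gene is said to have risen or fallen only at an adjusted p under 0.05 over all genes tested. The labels do not state that replicates were separate mice, so that p-values measure the spread between these samples. One library stood apart. On the first principal component of the 6, with 51.4% of the variance, A17fl/fl + NS replicate 1 scored -112 while the other scores ran from -4.40 to 38.3, and its mean correlation with the others was 0.894 against 0.939 to 0.953. Values without it are therefore given beside most gene groups. The summed CPM of 28 cardiomyocyte markers was 42095 in that library and ran from 62463 to 79069.5 in the other 5, and Myh6, the main myosin heavy chain of the adult mouse heart, had 4535 CPM there against 12006 to 16338 CPM. In whole tissue, fewer cells of a type and less RNA in each of them cannot be told apart.

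Adam17 (ENSMUSG00000052593), the targeted gene, was read first. Exon 2, the part removed, is shown because its length fixes what a whole-gene count can see. It lies at chr12:21361659-21361791 on the minus strand (GRCm38, GENCODE M21, transcript ENSMUST00000064536.12), has 133 of the 4443 bases of the messenger RNA (2.99%), is entirely coding, and leaves a remainder of 1 when divided by 3.
Adam17 exon 2: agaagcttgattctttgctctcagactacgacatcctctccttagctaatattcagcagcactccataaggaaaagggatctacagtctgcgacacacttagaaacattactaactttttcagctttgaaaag
A transcript that lacks only this exon is, where present, still counted over the other 18. The primers of the study's RT-PCR also lie outside it, in exon 16 and across exons 16 and 17, with a product of 78 bases.
RT-PCR forward primer: aggacgtaattgagcgattttgg
RT-PCR reverse primer: tgttatctgccagaaacttccc
Adam17 had 70.9, 48.7 and 43.6 CPM in the A17fl/fl + NS libraries and 35.3, 34.9 and 34.2 CPM in the A17α-MHCKO + NS libraries. Every A17α-MHCKO value was below every A17fl/fl value, and the A17α-MHCKO mean was 64.0% of the A17fl/fl mean. The log2 fold change was -0.64 (standard error, SE, of 0.17, unadjusted p = 0.00343, adjusted p = 0.313), and -0.41 without A17fl/fl + NS replicate 1. Since the values come from whole tissue and the whole gene, they do not measure how many cardiomyocytes lost exon 2. The study reported a larger fall than these counts in A17α-MHCKO hearts, of Adam17 mRNA by RT-PCR and of the protein by western blot. The cause of that difference was not tested.

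Across the 16101 genes tested, 3 changed between the genotypes, which is 0.0186% of them. Pold3, the accessory subunit of DNA polymerase δ, and Ssu2, a gene of tooth development, rose, and Pgm2l1, an enzyme that makes glucose 1,6-bisphosphate, fell. At an unadjusted p under 0.05 there were 1633 genes (10.1%), of which 581 were higher (3.61%) and 1052 lower (6.53%) in A17α-MHCKO hearts. The study's own methods set as limits a mean FPKM (fragments scaled by gene length and library total) over 1 in either group, a p under 0.05 without adjustment and a log2 fold change over 1 in size. These limits were met by 482 genes (2.99%), 108 higher (0.671%) and 374 lower (2.32%). The 3 values of one group lay entirely above or below the 3 of the other in 1747 genes (10.9%). The single library weighed unequally on these counts. Among the 374 genes lower in A17α-MHCKO hearts, the highest of the 6 values was in A17fl/fl + NS replicate 1 in 314 (84.0%), in replicate 3 in 50 and in replicate 2 in 10.

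**Figure D1:**
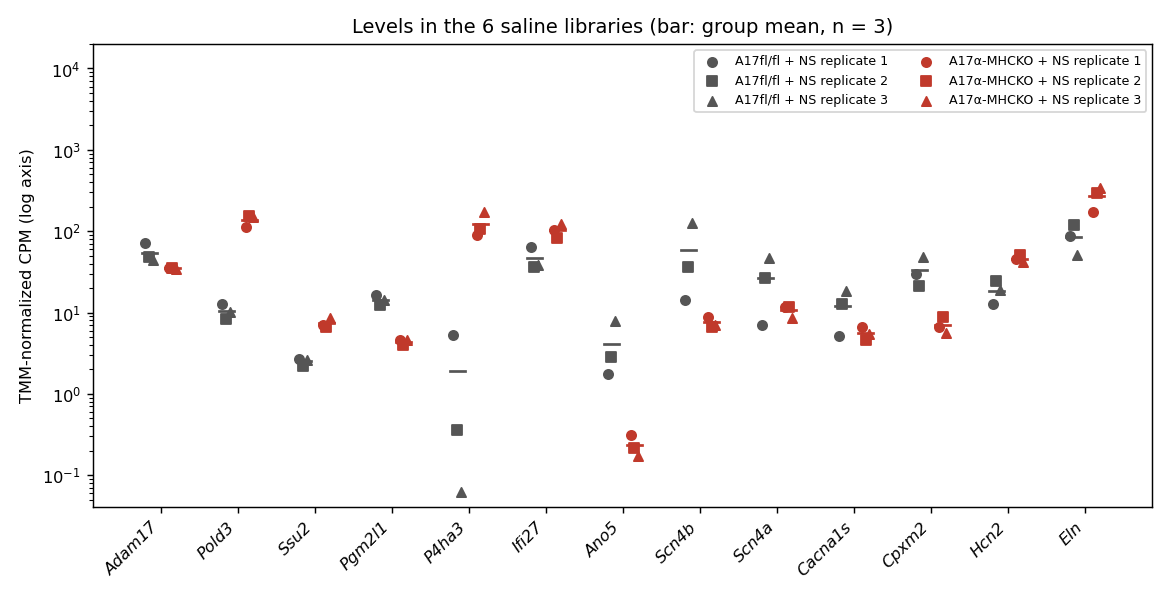
Levels (CPM, log axis) of 10 genes that passed an adjusted p of 0.05 with all libraries or without A17fl/fl + NS replicate 1, and of Adam17, Hcn2 and Eln, with a point for each of the 6 NS libraries and a bar at the mean of the 3 in a group. The A17α-MHCKO points of Pold3 and P4ha3 lie above all A17fl/fl points, and those of Pgm2l1, Cpxm2 and Ano5 below all of them.

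Leaving out single A17fl/fl libraries moved the counts most. Without A17fl/fl + NS replicate 1, 16406 genes were tested and 11 passed the adjusted limit (0.067%), 4 higher (P4ha3, Pold3, Ssu2 and Ifi27) and 7 lower (among them Ano5, Pgm2l1, Scn4b, Scn4a, Cacna1s and Cpxm2), and 254 genes met the study's limits (1.55%), 143 of them shared with the 482. Without A17fl/fl + NS replicate 2 the adjusted limit was passed by 672 genes (4.09%, 331 higher and 341 lower) and the study's limits by 1066 (6.48%). Leaving out replicate 3 left 1 gene (0.00606%) and 754 genes (4.57%). The A17α-MHCKO libraries weighed less, with 1 (0.00606%), 2 (0.0121%) and 1 (0.00608%) genes when replicates 1, 2 and 3 were left out, and 426 (2.58%), 398 (2.41%) and 396 (2.41%) at the study's limits. The share of all tested genes at an unadjusted p under 0.05, against which the counts of gene lists are read, moved as well. It was 4.58% higher and 5.65% lower without A17fl/fl + NS replicate 1, 8.85% and 11.2% without replicate 2 and 4.83% and 10% without replicate 3. For replicates 1, 2 and 3 of A17α-MHCKO + NS it was 2.98%, 3.14% and 2.67% higher and 4.66%, 5.14% and 4.38% lower. Of the 482 genes, 102 met the study's limits on p and fold change whichever of the 6 libraries was left out, 40 higher and 62 lower. The FPKM limit was taken over all libraries there.

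**Figure D2:**
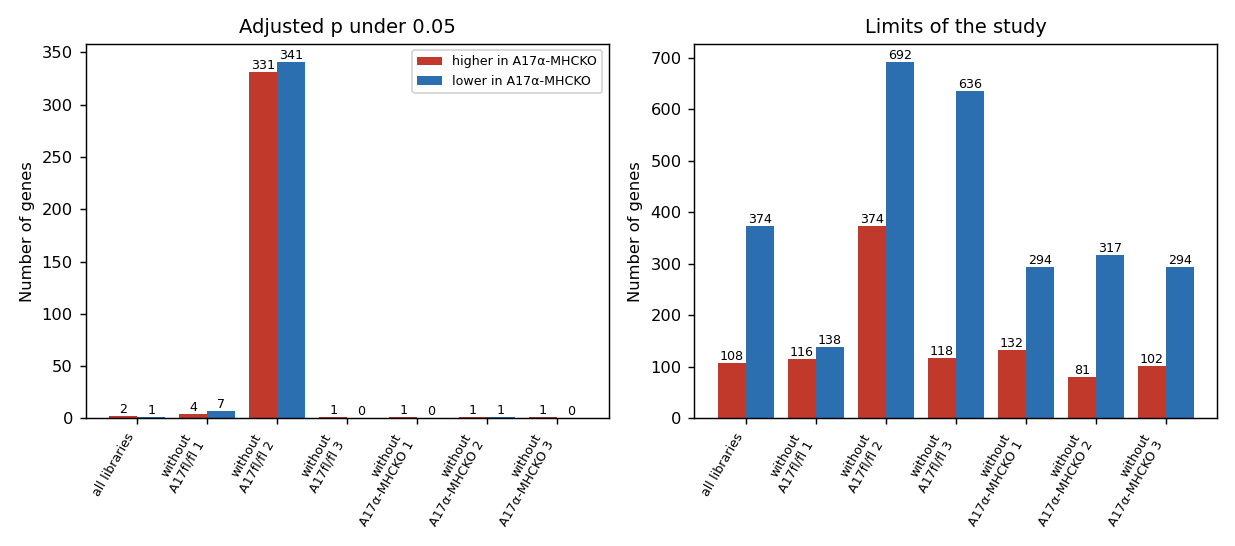
Number of genes higher (red) and lower (blue) in A17α-MHCKO hearts at an adjusted p under 0.05 (left) and at the limits of the study (right), with all libraries and with each of the 6 NS libraries left out. The count at an adjusted p is 672 without A17fl/fl + NS replicate 2 and at most 11 in the other settings.

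Pold3 (ENSMUSG00000030726) had 12.8, 8.26 and 10.02 CPM in A17fl/fl + NS and 113, 155 and 149 CPM in A17α-MHCKO + NS hearts. The groups did not overlap, and the A17α-MHCKO mean was 13.4-fold higher. The log2 fold change was 3.75 (SE 0.25, adjusted p = 1.05e-04), and between 3.61 and 3.92 whichever of the libraries was left out. P4ha3, an α subunit of the prolyl 4-hydroxylase that modifies collagen, lies 3 tested genes further along chromosome 7. It had 5.25, 0.359 and 0.0626 CPM in A17fl/fl + NS and 90.1, 106 and 170.1 CPM in A17α-MHCKO + NS hearts. All A17fl/fl values were low, with the highest in replicate 1. Its log2 fold change of 5.99 (SE 0.89, adjusted p = 0.07399) passed the adjusted limit without that replicate (9.11, adjusted p = 2.87e-05). Between them lies Pgm2l1 with 16.5, 12.5 and 14.3 CPM in A17fl/fl + NS and 4.63, 4.02 and 4.53 CPM in A17α-MHCKO + NS hearts. It fell by 1.72 on the log2 scale (SE 0.21, adjusted p = 0.0203), again without overlap of the groups.

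The genes around Pold3 were then read in order of position, 10 tested genes on each side, a window placed there because Pold3 had changed. Besides Pgm2l1 and P4ha3, 3 of the other 18 had an unadjusted p under 0.05, against 10.1% of all genes. Lipt2, a lipoyl transferase next to Pold3, had 6.06, 6.34 and 8.52 CPM in A17fl/fl + NS and 4.01, 3.89 and 2.96 CPM in A17α-MHCKO + NS hearts (log2 fold change -0.94, unadjusted p = 0.00127, adjusted p = 0.247). Ppme1, which removes the methyl group of protein phosphatase PP2A, had 51.9, 37.3 and 35.7 against 29.5, 28.3 and 29.99 CPM (-0.51, unadjusted p = 0.00467). Coa4, an assembly factor of cytochrome c oxidase, was the only one of the neighbours other than P4ha3 with a higher value at this limit, with 7.21, 7.78 and 6.95 against 9.26, 9.67 and 9.997 CPM (0.40, unadjusted p = 0.0154). The 10 genes on the other side of Pold3 had log2 fold changes between -0.79 and 0.62. Among all 63 genes with an unadjusted p under 0.001, 9 lay on chromosome 7, which is 0.718% of its 1254 tested genes, against 0.391% of all tested genes. Chromosome 5 also held 9 (0.883%). Those of chromosome 7 included Gm35082 and Trim34b, a member of the TRIM ubiquitin ligase family, both named here after their values were seen and both further along the same chromosome by 13 and 60 tested genes. Gm35082 had 0 counts in each A17fl/fl + NS library and 1.85, 0.777 and 0.756 CPM in A17α-MHCKO + NS hearts, at least 18.9-fold higher when A17fl/fl is set at a floor of 3 counts over the group. Trim34b had 0.346, 0.359 and 0.313 CPM in A17fl/fl + NS and 1.79, 1.94 and 1.63 CPM in A17α-MHCKO + NS hearts (log2 fold change 2.37, unadjusted p = 7.98e-05).

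**Figure D3:**
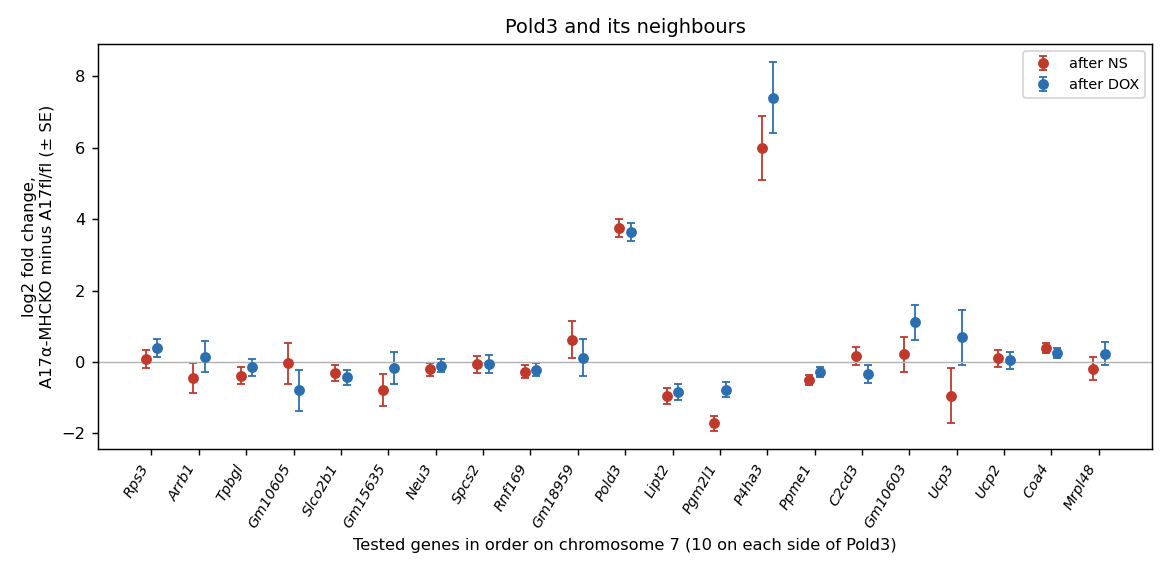
Log2 fold change (A17α-MHCKO minus A17fl/fl, with its standard error) of Pold3 and the 10 tested genes on each side, in order along chromosome 7, after NS and after DOX. Pold3 and P4ha3 stand above 3 in both treatments, and Lipt2 and Pgm2l1, which lie between them, are below 0 in both.

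These genes also differed after DOX. Pold3 had 9.87, 9.66 and 8.83 CPM in A17fl/fl + DOX and 137, 136 and 81.6 CPM in A17α-MHCKO + DOX hearts (3.64, adjusted p = 1.40e-04), the only gene of 16101 (0.00621%) past the adjusted limit there. P4ha3 had 0.629, 0.8001 and 0.435 against 79.1, 124 and 114 CPM (7.39, adjusted p = 0.0876). The log2 fold change after DOX was -0.78 for Pgm2l1 (unadjusted p = 0.00284) and -0.85 for Lipt2 (unadjusted p = 0.00267). Of the 63 genes with an unadjusted p under 0.001 after NS, 5 (7.94%) had an unadjusted p under 0.05 in the same direction after DOX, as did 1.65% of all tested genes, and 2 had such a p in the opposite direction (Eln, and Zfp970, named after its values were seen). In either direction 435 genes (2.70%) had such a p after DOX. All 5 with the same direction were on chromosome 7 (Pold3, Pgm2l1, P4ha3, Gm35082 and Trim34b). The DOX libraries share no sample with the NS libraries.

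The 250 bases before the start sites of Pold3 and P4ha3 are shown because these genes were higher together in both treatments. They are from RefSeq (GRCm38.p6), read 5′ to 3′ in the direction of the gene, with each CG in capitals. Pold3 holds 18 CG pairs in the window chr7:100121503-100121752 on the minus strand, and P4ha3 holds 23 in the window chr7:100285270-100285519 on the plus strand.
Pold3: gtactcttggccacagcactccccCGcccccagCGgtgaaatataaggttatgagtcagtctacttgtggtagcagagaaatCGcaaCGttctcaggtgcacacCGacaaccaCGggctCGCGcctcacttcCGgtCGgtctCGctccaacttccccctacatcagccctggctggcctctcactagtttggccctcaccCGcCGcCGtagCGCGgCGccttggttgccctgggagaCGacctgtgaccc
P4ha3: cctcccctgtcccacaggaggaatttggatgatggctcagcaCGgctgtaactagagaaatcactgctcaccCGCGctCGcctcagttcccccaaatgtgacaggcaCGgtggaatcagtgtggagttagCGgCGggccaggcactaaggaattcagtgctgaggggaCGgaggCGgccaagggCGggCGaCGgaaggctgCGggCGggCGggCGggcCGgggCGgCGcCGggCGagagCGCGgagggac
The bases G and C make up 61.6% of the Pold3 window and 67.2% of the P4ha3 window. Methylation or protein binding at these sites was not measured.

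Ssu2, on another chromosome, had 2.71, 2.21 and 2.63 CPM in A17fl/fl + NS and 6.98, 6.65 and 8.602 CPM in A17α-MHCKO + NS hearts. The groups did not overlap and the mean rose 2.94-fold (log2 fold change 1.55, SE 0.19, adjusted p = 0.0203). After DOX the log2 fold change was 0.048 (unadjusted p = 0.796).

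Genes induced by interferon had higher values in A17α-MHCKO hearts. Interferons act through transcription factors that include IRF9 and bind the interferon-stimulated response element (ISRE) of genes that limit viruses and mark foreign RNA. Of 40 tested interferon-stimulated genes, 20 were higher and 1 (Trim30d) lower at an unadjusted p under 0.05, against 3.61% and 6.53% of all genes. In edgeR 0 of them passed the adjusted limit, while DESeq2 gave 7 higher, edgeR's likelihood ratio test 6 and limma's voom 0. The median log2 fold change was 0.74, against -0.033 over all tested genes. When A17fl/fl + NS replicate 1 was dropped, 27 of the 40 were higher at the unadjusted limit (background 4.58% higher and 5.65% lower), 1 of them, Ifi27, at the adjusted one, and the median was 0.99. With any of the 6 libraries left out, 14 to 27 were higher.

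Irf9 (ENSMUSG00000002325), the DNA-binding part of the factor, had 36.6, 25.97 and 28.5 CPM in A17fl/fl + NS and 65.6, 53.1 and 56.3 CPM in A17α-MHCKO + NS hearts. All A17α-MHCKO values were higher, with a log2 fold change of 0.94 (SE 0.18, adjusted p = 0.162, or 0.0593 without A17fl/fl + NS replicate 1). Ifi27, a membrane protein of mitochondria and the nucleus, had 63.9, 36.5 and 38.8 CPM in A17fl/fl + NS and 104, 82.2 and 122 CPM in A17α-MHCKO + NS hearts. The groups were again apart (1.15, SE 0.24, adjusted p = 0.176), and it rose by 1.45 on the log2 scale without that replicate (adjusted p = 0.0254). Ifit3, whose product binds viral RNA together with that of Ifit1, had 20.4, 15.1 and 22.99 CPM in A17fl/fl + NS and 52.04, 45.6 and 36.96 CPM in A17α-MHCKO + NS hearts (1.20, unadjusted p = 0.00358). Irf7, the factor that amplifies the response, had 27.7, 10.8 and 14.8 against 42.3, 26.5 and 52.9 CPM. Its groups overlapped because A17fl/fl + NS replicate 1 exceeded one A17α-MHCKO value (1.19, unadjusted p = 0.0212). Isg15, a ubiquitin-like modifier, had 20.1, 7.48 and 5.2 against 18.9, 14.5 and 14.2 CPM, with the highest value in A17fl/fl + NS replicate 1, and its log2 fold change of 0.54 (unadjusted p = 0.239) was 1.32 without it (unadjusted p = 0.00126).

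Others of the list are named after their values were seen. Ifit1 had 14.8, 8.56 and 14.8 CPM in A17fl/fl + NS and 41.1, 27.8 and 31.4 CPM in A17α-MHCKO + NS hearts (1.39, unadjusted p = 0.001403). Gbp3, a guanylate-binding protein, had 24.5, 16.2 and 14.6 against 43.3, 55.2 and 40.7 CPM (1.33, unadjusted p = 0.005204). Bst2, which tethers budding viruses, had 49.9, 31.6 and 28.9 against 68.7, 84.3 and 74.05 CPM (1.04, unadjusted p = 0.00216). In each of these 3 genes every A17α-MHCKO value lay above every A17fl/fl value. Usp18, an enzyme that removes ISG15 and dampens the response, had 8.95, 5.74 and 7.14 against 17.1, 12.5 and 15.2 CPM (1.03, unadjusted p = 0.00348).

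The windows of Ifit1 and Gbp3 are shown because both genes were higher and each holds 2 ISRE matches. Capitals mark the motif GAAA, any 2 bases, GAAA on either strand, so that a match on the other strand shows TTTC at both ends. The windows are chr19:34640639-34640888 and chr3:142559794-142560043, both on the plus strand (RefSeq, GRCm38.p6), and in Gbp3 the matches overlap.
Ifit1: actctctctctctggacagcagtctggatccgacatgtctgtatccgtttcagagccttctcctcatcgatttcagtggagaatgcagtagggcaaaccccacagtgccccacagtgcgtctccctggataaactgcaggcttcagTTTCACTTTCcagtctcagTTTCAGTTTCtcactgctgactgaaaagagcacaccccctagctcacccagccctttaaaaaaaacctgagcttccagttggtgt
Gbp3: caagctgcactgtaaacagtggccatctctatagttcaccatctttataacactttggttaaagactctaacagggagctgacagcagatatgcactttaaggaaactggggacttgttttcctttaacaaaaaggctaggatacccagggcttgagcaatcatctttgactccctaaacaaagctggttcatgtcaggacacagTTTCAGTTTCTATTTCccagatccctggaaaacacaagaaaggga
The nearest match ends 75 bases before the start site in Ifit1 and 29 bases before it in Gbp3. Of the 28 tested interferon-stimulated genes with such a window, 16 held a match (57.1%), against 3.35% of 11246 tested genes and 2.98% of all 32851 windows. The median log2 fold change was 0.89 for the 16 and 0.74 for the other 12, and 8 of the 16 and 7 of the 12 were higher at the unadjusted limit. Among all tested genes with a window, 25 of the 377 with a match (6.63%) were higher at the unadjusted limit, and 3.51% of those without one. The 377 include the 16 of the list, and so the 8 of these that were higher.

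Genes of antigen presentation were higher too. Class I molecules, with β2-microglobulin, show peptides cut by the immunoproteasome, and class II molecules are made mainly by dendritic cells, macrophages and B cells under the regulator CIITA. All 23 genes of the list had a positive log2 fold change (median 0.89), 15 of them at an unadjusted p under 0.05, against 3.61% of all genes. At the adjusted limit there were 0 in edgeR (2 with DESeq2, 1 with the likelihood ratio test, 0 with voom). There were 18 at the unadjusted limit without A17fl/fl + NS replicate 1, 9 without A17fl/fl + NS replicate 2, 11 without A17fl/fl + NS replicate 3 and 5 without A17α-MHCKO + NS replicate 2, where 22 of the 23 stayed positive and the median was 0.62. Psme1, a subunit of the activator PA28, had 50.4, 54.2 and 53.1 CPM in A17fl/fl + NS and 81.3, 72.1 and 78.7 CPM in A17α-MHCKO + NS hearts (0.56, SE 0.12, adjusted p = 0.242). The spread within each group was small and the groups were apart. H2-K1, a class I heavy chain, had 393, 197 and 234 against 439, 647 and 457 CPM (0.90, unadjusted p = 0.0148), and B2m, its light chain, 563, 264 and 349 against 639, 721 and 542 CPM (0.69, unadjusted p = 0.0326). Near-identical H2 genes can share fragments. Cd74, the invariant chain of class II, had 89.1, 297 and 226 against 371, 740.0 and 369 CPM (1.27, unadjusted p = 0.0126). Named after their values were seen, H2-Aa had 20.03, 99.9 and 76.2 against 132, 276 and 133 CPM (1.46, unadjusted p = 0.01498) and Ciita 1.04, 1.85 and 4.07 against 5, 17.3 and 6.22 CPM (2.04, unadjusted p = 0.00638). For both, each A17α-MHCKO library was above each A17fl/fl library.

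**Figure D4:**
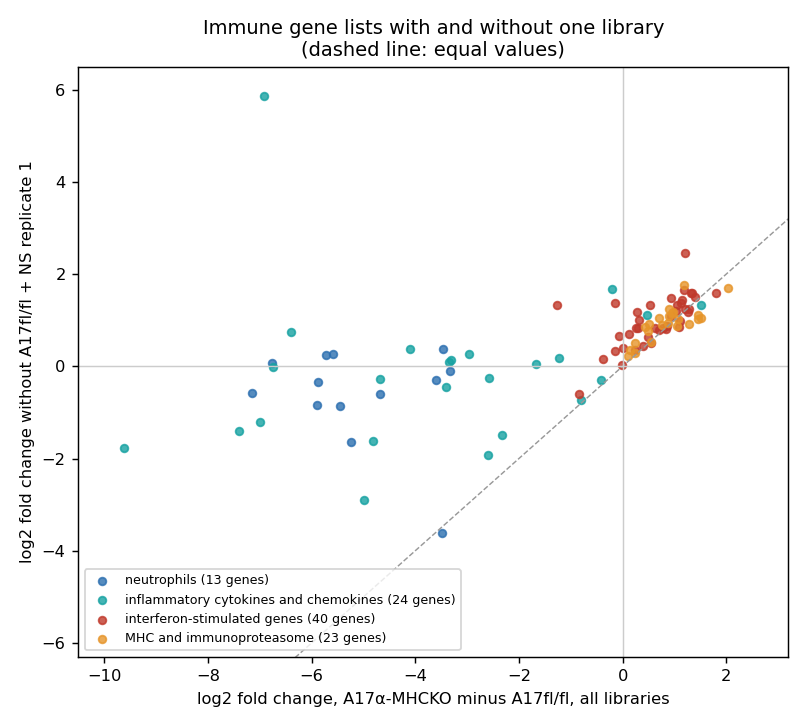
Log2 fold change of each tested gene of the interferon-stimulated (40), MHC (23), cytokine (24) and neutrophil (13) lists with all libraries (horizontal) and without A17fl/fl + NS replicate 1 (vertical), A17α-MHCKO minus A17fl/fl. All 23 MHC genes and 33 of the interferon-stimulated genes sit above 0 on the horizontal axis, while the medians of the neutrophil and cytokine genes move from -5.44 and -3.34 on it to -0.33 and -0.14 on the vertical one.

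Markers of lymphocytes and macrophages were read beside these genes. Of 18 tested T and NK cell markers, all had a positive log2 fold change (median 0.70), 5 at an unadjusted p under 0.05, against 3.61% of all genes. At the adjusted limit 0 of these markers were called with edgeR (1 with DESeq2, 1 with the likelihood ratio test, 0 with voom). Their summed level was 21.7 to 22.2 CPM in A17fl/fl + NS and 25.2 to 46.9 CPM in A17α-MHCKO + NS hearts, without overlap. The highest sum was in A17α-MHCKO + NS replicate 2, and without that library 12 of 19 tested markers had a positive log2 fold change (median 0.46) and 2 were higher at the unadjusted limit, against 4 without A17fl/fl + NS replicate 1. Gzma, granzyme A of cytotoxic cells, had 0, 0.1197 and 0.188 CPM in A17fl/fl + NS and 1.23, 1.77 and 1.39 CPM in A17α-MHCKO + NS hearts (3.77, SE 0.64, adjusted p = 0.108). The A17fl/fl values rest on a few fragments each. Cx3cr1, the fractalkine receptor of monocytes and resident macrophages, had 2.77, 1.97 and 3.38 against 4.14, 10.02 and 9.94 CPM (1.57, adjusted p = 0.244). It was the only one of 23 tested macrophage markers with a higher value at the unadjusted limit, while 6 were lower, against 3.61% and 6.53% of all genes. The direction rested on one library, since 4 macrophage markers were higher and 1 lower without A17fl/fl + NS replicate 1 (background 4.58% and 5.65%). The median went from -0.51 to 0.11. Leaving out A17fl/fl + NS replicate 2 gave 14 lower (background 11.2%), and leaving out A17α-MHCKO + NS replicate 1 gave 3 (background 4.66%). Csf1r, the growth factor receptor of all macrophages, had 151, 92.9 and 121 against 91.8, 109 and 108 CPM, and its groups overlapped. The part of these cells in the interferon and MHC values was not tested.

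Inflammatory genes were lower in A17α-MHCKO hearts, and A17fl/fl + NS replicate 1 decided most of it. Of 24 tested cytokine, chemokine and related genes, 20 were lower and 1 (Ccl5) higher at an unadjusted p under 0.05, against 6.53% and 3.61% of all genes. The median log2 fold change was -3.34, and 0 passed the adjusted limit with edgeR (2 lower with DESeq2, 7 with the likelihood ratio test, 0 with voom). Without that replicate 6 were lower and 1 higher (background 5.65% and 4.58%), with a median of -0.14. Of 13 tested neutrophil markers, 12 were lower with all libraries (median -5.44, 0 at the adjusted limit with edgeR, 2 with DESeq2, 9 with the likelihood ratio test and 0 with voom) and 2 without the replicate (median -0.33). The 23 neutrophil markers summed to 3678 CPM in A17fl/fl + NS replicate 1 and to 27.4 to 57.0 CPM in the other 5 libraries, and the cytokine genes to 5049 CPM against 330 to 620.

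Il1b, which encodes interleukin-1β, had 428, 0.898 and 1.82 CPM in A17fl/fl + NS and 0.926, 0.9501 and 2.15 CPM in A17α-MHCKO + NS hearts. A single library held nearly all of it, and the log2 fold change went from -6.75 to -0.024 without that library. S100a8, a subunit of the neutrophil protein calprotectin, had 714, 1.02 and 6.64 against 5.86, 3.89 and 4.01 CPM, with a log2 fold change of -5.72 that became 0.25. Tnf, the cytokine that ADAM17 releases, was not tested for lack of counts, with 68.9, 0.479 and 0.376 CPM in A17fl/fl + NS and 0.309, 0.173 and 0.174 CPM in A17α-MHCKO + NS hearts. Each A17fl/fl value exceeded each A17α-MHCKO value, but outside replicate 1 these are levels of a few fragments. Ccl2, a chemokine for monocytes, had 92, 2.39 and 3.57 against 2.35, 3.63 and 3.84 CPM, and Ptgs2, the inducible cyclooxygenase, 82.3, 3.29 and 2.005 against 2.35, 2.76 and 3.43 CPM. For these the other 5 libraries overlapped.

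Some inflammatory genes were lower also without that library. Ccl11, the eosinophil chemokine eotaxin, had 13.3, 4.37 and 5.33 CPM in A17fl/fl + NS and 1.23, 1.99 and 0.523 CPM in A17α-MHCKO + NS hearts (-2.59, unadjusted p = 3.97e-04, or -1.93 and 9.88e-04 without replicate 1). Mmp9, a matrix metalloprotease of neutrophils and macrophages, had 179, 6.52 and 3.88 against 1.54, 1.86 and 1.57 CPM (-5.24, unadjusted p = 0.00153, or -1.64 and 0.00191). In both, each of the A17fl/fl libraries was above each A17α-MHCKO library. Cxcl12, which retains leukocyte precursors, is named after its values were seen, with 372, 225 and 422 against 189, 199.6 and 196 CPM (-0.80, unadjusted p = 0.00378).

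**Figure D5:**
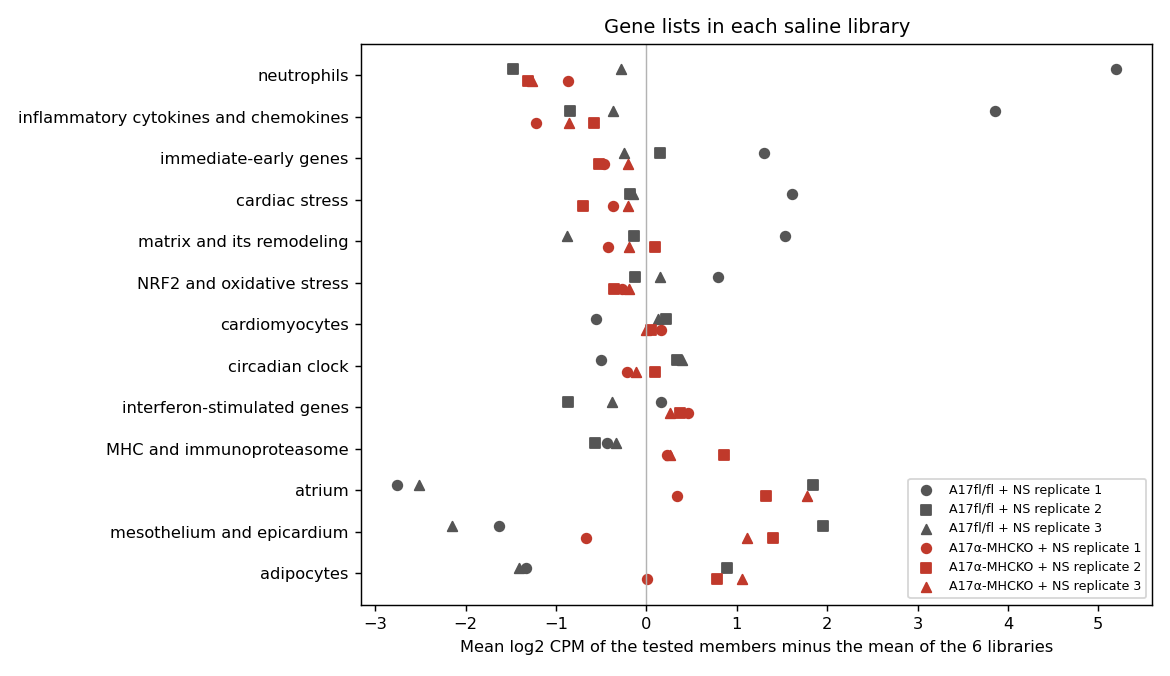
Mean log2 CPM of the tested members of 13 lists in each of the 6 NS libraries, as the difference from the mean of the 6. A17fl/fl + NS replicate 1 stands above the rest for neutrophils and cytokines, all 3 A17α-MHCKO libraries stand above the A17fl/fl libraries for interferon-stimulated and MHC genes, and A17fl/fl + NS replicates 1 and 3 stand below the rest for the atrium.

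Among genes of the shedding machinery, Adam17 itself had the smallest p with all libraries, and Adam19 had it without A17fl/fl + NS replicate 1. Of 16 tested sheddases and partners, 5 were lower at an unadjusted p under 0.05 (Adam17, Adam8, Adam9, Adam12 and Furin), against 6.53% of all genes. At the adjusted limit there were 0 with edgeR (0 with DESeq2, 2 lower with the likelihood ratio test, 0 with voom). Leaving out A17fl/fl + NS replicate 1 gave 2 lower and 1 higher, and leaving out A17α-MHCKO + NS replicate 2 gave 3 lower. Adam10, the closest relative of Adam17, had 85.8, 62.6 and 55.3 CPM in A17fl/fl + NS and 76.6, 75.4 and 72.4 CPM in A17α-MHCKO + NS hearts, and the groups overlapped (0.14, unadjusted p = 0.469). Rhbdf2, which encodes iRhom2, had 49.8, 17.7 and 27.5 against 24.3, 20.8 and 22.6 CPM (-0.49, unadjusted p = 0.107). Furin, named after its values were seen, had 254, 153 and 145 against 107, 104 and 129.7 CPM (-0.69, unadjusted p = 0.0146), with the highest value in A17fl/fl + NS replicate 1 and a log2 fold change of -0.39 without it. Timp3, the inhibitor, had 366, 727 and 611 against 498, 382 and 467 CPM (-0.34, unadjusted p = 0.148), and -0.58 without that replicate (unadjusted p = 0.00221).

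Shedding acts on proteins, and the transcripts of ADAM17 substrates were read as a list of their own. Of 32 tested substrates, 7 were lower and 1 (Nrg1) higher at an unadjusted p under 0.05 with all libraries, against 6.53% and 3.61% of all genes. Without A17fl/fl + NS replicate 1 there were 0 in either direction. There were 15 lower without replicate 2 of that group (background 11.2%) and 16 without replicate 3 (background 10%). With all libraries no adjusted call was made by edgeR's quasi-likelihood test, DESeq2, the likelihood ratio test or voom (0 in each). The quasi-likelihood test called 6 lower without A17fl/fl + NS replicate 2, where 4.09% of all genes were called in either direction. Tnfrsf1a, the widely expressed TNF receptor, had 206, 68.7 and 83.4 CPM in A17fl/fl + NS and 71.4, 83.1 and 75.7 CPM in A17α-MHCKO + NS hearts (-0.64, unadjusted p = 0.0717, or 0.011 without that replicate). Tnfrsf1b, the receptor of immune and endothelial cells, had 157, 15.9 and 28.1 against 16.4, 20.04 and 18.9 CPM (-1.86, or -0.25 without it). Hbegf, a ligand of the EGF receptor, had 35.03, 20.8 and 21.3 against 16.6, 16.3 and 14.9 CPM (-0.69, unadjusted p = 0.0154), and each A17α-MHCKO value was lower than each A17fl/fl value.

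Downstream of the TNF receptors, 45 genes of the path to NF-κB and the MAP kinases were tested, of which 9 were lower and 1 (Tab1) higher at an unadjusted p under 0.05, against 6.53% and 3.61% of all genes, and 0 passed the adjusted limit with edgeR's quasi-likelihood test, DESeq2, the likelihood ratio test or voom. These were 2 lower and 2 higher without A17fl/fl + NS replicate 1, and 16 lower and 2 higher without A17fl/fl + NS replicate 2. Traf3, an adaptor that restrains the noncanonical NF-κB path, had 12.1, 10.6 and 9.65 CPM in A17fl/fl + NS and 19.1, 13.8 and 8.31 CPM in A17α-MHCKO + NS hearts. Its groups overlapped (0.35, unadjusted p = 0.246). Map3k7, which encodes TAK1, had 40.6, 67.6 and 60.8 against 59.6, 52.7 and 59.3 CPM (0.022, SE 0.23). Tab1, the activator of TAK1, had 12.7, 17.4 and 16.7 against 19.8, 25.4 and 22.5 CPM (0.53, unadjusted p = 0.0135), and Map3k14, the kinase NIK that TRAF3 holds down, had 11.5, 9.93 and 10.5 against 8.09, 7.21 and 7.61 CPM (-0.48, unadjusted p = 0.00714). In both the groups were apart, in opposite directions, and both were named after their values were seen. Cebpb, a transcription factor of acute-phase and inflammatory genes, had 427, 189 and 132 CPM in A17fl/fl + NS and 131, 84.5 and 96.8 CPM in A17α-MHCKO + NS hearts, without overlap (-1.26, SE 0.36, adjusted p = 0.317, or -0.63 and an unadjusted p of 0.01701 without replicate 1).

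In the list of calcium handling and ion channels few genes differed with all libraries. The channel genes Scn4b, Scn4a and Cacna1s, given below, are not in that list. Of 40 tested genes for calcium handling and channels, 1 was higher at an unadjusted p under 0.05, Hcn2, against 3.61% of all genes, and 0 passed the adjusted limit with edgeR (1 higher with DESeq2, 1 with the likelihood ratio test, 0 with voom). There were 1 higher and 2 lower without A17fl/fl + NS replicate 1 (background 4.58% and 5.65%). Without A17fl/fl + NS replicate 2, 15 were higher (background 8.85%), 5 of them at the adjusted limit (background 2.01%). There were 3 higher without A17fl/fl + NS replicate 3 (4.83%) and 2 without A17α-MHCKO + NS replicate 1 (2.98%). A17fl/fl + NS replicates 1 and 3 had the atrial genes Sln, Myl7 and Myl4 at or near 0, as given below. The part of atrial tissue in the values without replicate 2, those of Hcn2 included, was not tested. Hcn2, a pacemaker channel, had 12.8, 24.1 and 18.9 CPM in A17fl/fl + NS and 45.1, 50.5 and 42.3 CPM in A17α-MHCKO + NS hearts. The groups were far apart (1.31, SE 0.22, adjusted p = 0.108, or 0.00803 without A17fl/fl + NS replicate 2), and after DOX the log2 fold change was -0.056.

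Several genes fell when A17fl/fl + NS replicate 1 was left out and not with all libraries, and in the 5 given here A17fl/fl + NS replicate 3 was the highest library. Scn4b, a sodium channel β subunit, had 14.4, 36.3 and 127 CPM in A17fl/fl + NS and 8.89, 6.65 and 7.09 CPM in A17α-MHCKO + NS hearts (-2.97, adjusted p = 0.223, or -3.44 and 0.0236 without replicate 1). Scn4a, the sodium channel of skeletal muscle, had 6.93, 26.9 and 46.5 against 11.7, 11.7 and 8.602 CPM (-1.33, or -1.79 with an adjusted p of 0.0236). Cacna1s, the calcium channel of skeletal muscle and named after its values were seen, had 5.14, 12.6 and 18.6 against 6.73, 4.62 and 5.41 CPM (-1.12, or -1.49 with an adjusted p of 0.0254). For Scn4a and Cacna1s, replicate 1 lay among or below the A17α-MHCKO values. Ano5, an anoctamin of muscle membranes, had 1.73, 2.87 and 7.83 against 0.309, 0.216 and 0.174 CPM, apart in all 6 libraries (-4.12, adjusted p = 0.07399, or -4.49 and 0.0204). Cpxm2, a carboxypeptidase-like protein, had 29.5, 21.1 and 48.4 against 6.54, 8.896 and 5.52 CPM (-2.23, adjusted p = 0.07399, or -2.31 and 0.0454).

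Genes of cardiac stress were lower in part. Of 22 tested stress genes, 12 were lower at an unadjusted p under 0.05 (median -0.86), against 6.53% of all genes, and 0 passed the adjusted limit with edgeR (2 lower with DESeq2, 4 with the likelihood ratio test, 0 with voom). Without A17fl/fl + NS replicate 1 there were 6 lower and 1 higher (median -0.21, background 5.65% and 4.58%). The natriuretic peptide genes, the usual markers of a strained ventricle, did not separate the groups. Nppa is also in the atrial list, and its lowest values were in A17fl/fl + NS replicates 1 and 3, as for Myl7 and Myl4 below. Whether its values come from ventricle was not tested. Nppa had 1019.5, 4199 and 331 CPM in A17fl/fl + NS and 2609.7, 4185 and 6024 CPM in A17α-MHCKO + NS hearts (1.21, unadjusted p = 0.139), and Nppb 787, 97.2 and 177 against 87.7, 105 and 316 CPM (-1.06, unadjusted p = 0.145). Hmox1, heme oxygenase, had 369.8, 20.4 and 70.2 against 15.1, 15.7 and 14.7 CPM (-3.34, adjusted p = 0.244, or -1.58 and 0.181 without replicate 1). Xirp2, an actin-binding protein of the intercalated disc, had 231, 322 and 311 against 204, 141 and 160.5 CPM (-0.77, unadjusted p = 0.00388). Of 33 tested sarcomere and Z-disc genes, 3 were lower and 0 higher at that limit, against 6.53% and 3.61% of all genes. With all libraries 20 had a positive log2 fold change (median 0.078), and 0 passed the adjusted limit with edgeR (1 lower with DESeq2, 1 with the likelihood ratio test, 0 with voom). There were 6 lower without A17fl/fl + NS replicate 1 (median -0.16, background 5.65%). Without A17fl/fl + NS replicate 2, 7 were higher and 4 lower (background 8.85% and 11.2%). Myot, the Z-disc protein myotilin of this list, had 74.9, 47.2 and 132 against 35.7, 16.5 and 19.8 CPM (-1.82, SE 0.36, adjusted p = 0.172). For Hmox1, Xirp2 and Myot each A17α-MHCKO library was below each A17fl/fl library.

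The matrix list reversed with one library. Of 46 tested genes, 10 were lower and 4 higher at an unadjusted p under 0.05 with all libraries (median -0.53), against 6.53% and 3.61% of all genes. Without A17fl/fl + NS replicate 1, 2 were lower and 10 higher (median 0.37, background 5.65% and 4.58%). There were 17 lower and 7 higher without A17fl/fl + NS replicate 2 (background 11.2% and 8.85%), and 20 lower and 2 higher without A17fl/fl + NS replicate 3 (10% and 4.83%). At the adjusted limit, with all libraries, edgeR's quasi-likelihood test called 0, DESeq2 1 higher, the likelihood ratio test 1 higher and 4 lower, and voom 0. The quasi-likelihood test called 4 higher and 6 lower without A17fl/fl + NS replicate 2, where 4.09% of all genes were called in either direction. Col1a1, which encodes a chain of type I collagen, had 2262, 278 and 85.01 CPM in A17fl/fl + NS and 168, 379 and 274 CPM in A17α-MHCKO + NS hearts, so that its log2 fold change of -1.68 became 0.59. Timp1, an inhibitor of matrix metalloproteases, had 734, 6.103 and 3.63 against 2.901, 6.003 and 4.71 CPM, and -5.76 became -0.094. Eln (ENSMUSG00000029675), which encodes elastin, did not depend on it. It had 87.4, 117 and 51.4 CPM in A17fl/fl + NS and 174, 295 and 341 CPM in A17α-MHCKO + NS hearts, without overlap (1.66, SE 0.31, adjusted p = 0.139, and 1.40 to 1.96 with each library left out). After DOX it was lower in the knockout, with 118, 129 and 90.1 against 62, 61.8 and 73.7 CPM (-0.77, unadjusted p = 0.0265). The difference between both genotype effects, tested as an interaction, was -2.43 on the log2 scale (unadjusted p = 1.35e-04, adjusted p = 0.524).

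Some clock genes had lower values in A17α-MHCKO hearts. BMAL1 (Arntl) with CLOCK or NPAS2 switches on the Per and Cry genes and others through the E-box, and PER and CRY proteins then hold BMAL1 back. Of 19 tested clock genes, 5 were lower and 1 (Npas2) higher at an unadjusted p under 0.05, against 6.53% and 3.61% of all genes. Without A17fl/fl + NS replicate 1, 9 were lower and 3 higher (background 5.65% and 4.58%). There were 3 lower without A17fl/fl + NS replicate 3, and 2 each without A17α-MHCKO + NS replicate 1 and without A17α-MHCKO + NS replicate 3. At the adjusted limit edgeR's quasi-likelihood test called 0 with all libraries, DESeq2 1 higher and 2 lower, the likelihood ratio test 1 and 1, and voom 0. Ciart, a repressor of BMAL1, had 2.48, 7.72 and 3.32 CPM in A17fl/fl + NS and 1.296, 1.81 and 1.104 CPM in A17α-MHCKO + NS hearts, without overlap (-1.67, unadjusted p = 0.00117). Per2 had 15.6, 31.7 and 43.5 against 13.5, 21.6 and 14.2 CPM (-0.88, unadjusted p = 0.03397), and Cry2 23.7, 45.8 and 57.9 against 29.1, 31.2 and 25.5 CPM (-0.57, or -0.86 with an adjusted p of 0.0597 without replicate 1). Of the activators, Npas2 had 2.48, 2.33 and 2.94 against 10.4, 4.84 and 10.8 CPM, named after its values were seen (1.74, unadjusted p = 0.00144), and Arntl 19.1, 4.37 and 7.77 against 23.5, 9.76 and 25.2 CPM (0.90, unadjusted p = 0.138). For Arntl the groups overlapped, and the lowest levels were in A17fl/fl + NS replicates 2 and 3.

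The window of Ciart is shown because it holds 3 E-boxes. Capitals mark CACGTG, which reads the same on both strands, in chr3:95882229-95882478 on the minus strand (RefSeq, GRCm38.p6).
Ciart: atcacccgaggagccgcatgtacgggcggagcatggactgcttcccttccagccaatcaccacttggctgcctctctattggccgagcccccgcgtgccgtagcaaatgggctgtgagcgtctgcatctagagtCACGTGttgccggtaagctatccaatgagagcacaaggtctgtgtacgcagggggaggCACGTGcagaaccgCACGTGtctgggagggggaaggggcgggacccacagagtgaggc
The nearest E-box ends 38 bases before the start site. Of the 16 tested clock genes with a window, 5 held an E-box (31.2%), against 9.67% of all tested genes and 6.02% of all windows. At the unadjusted limit 2 of the 5 were lower, and 1 of the 11 without an E-box. Among all tested genes with a window, those of the list included, 6.89% of those with an E-box were lower and 6.81% of those without one.

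Genes of the NRF2 response, which detoxifies oxidants and electrophiles through the antioxidant response element (ARE), were lower in part. Of 44 tested, 19 were lower and 0 higher at an unadjusted p under 0.05 with all libraries (median -0.52), against 6.53% and 3.61% of all genes. Without A17fl/fl + NS replicate 1, 14 were lower and 3 higher (median -0.22, background 5.65% and 4.58%). At the adjusted limit, with all libraries, edgeR's quasi-likelihood test called 0, DESeq2 4 lower, the likelihood ratio test 4 lower and voom 0. The quasi-likelihood test called 9 lower without A17fl/fl + NS replicate 2, where 4.09% of all genes were called in either direction. Gsta2, a glutathione transferase, had 1.905, 1.02 and 4.51 CPM in A17fl/fl + NS and 0.247, 0.475 and 0.465 CPM in A17α-MHCKO + NS hearts (-2.61, unadjusted p = 9.79e-04). Its relative Gsta3, named after its values were seen, had 18.1, 10.9 and 22.8 against 5.43, 8.896 and 4.71 CPM (-1.44, unadjusted p = 0.00197). Nqo1, a quinone reductase, had 57.6, 32.1 and 75.4 against 26.8, 28.6 and 30.2 CPM (-0.95, unadjusted p = 0.003199). Gclc, a subunit of the enzyme that starts glutathione synthesis, had 21.2, 20.6 and 18.5 against 13.7, 13.1 and 16.04 CPM (-0.49, unadjusted p = 0.00546). In all 4 genes the A17α-MHCKO libraries were below the A17fl/fl libraries. Near-identical Gsta genes can share fragments. The window of Gsta3 (chr1:21240335-21240584, plus strand, RefSeq, GRCm38.p6) is shown with its single ARE match, TGACNNNGC, in capitals.
Gsta3: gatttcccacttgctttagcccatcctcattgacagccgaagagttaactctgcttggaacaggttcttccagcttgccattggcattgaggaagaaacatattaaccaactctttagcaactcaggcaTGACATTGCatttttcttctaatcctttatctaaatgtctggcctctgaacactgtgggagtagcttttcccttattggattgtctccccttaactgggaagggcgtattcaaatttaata
Of the 35 NRF2 genes with a window 10 held a match on either strand (28.6%), against 14.0% of all tested genes and 10.2% of all windows. Of these 10, 6 were lower at the unadjusted limit, and of the 25 without a match 8. Among all tested genes with a window, those of the list included, 8.64% of those with a match were lower and 6.52% of those without one.

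The lists of energy metabolism were read next. Of 78 tested nuclear genes for respiratory chain subunits, 9 were higher at an unadjusted p under 0.05, against 3.61% of all genes, and 70 had a positive log2 fold change, with a median of 0.21. Without A17fl/fl + NS replicate 1, 3 were higher and 1 lower (background 4.58% and 5.65%). There were 1 higher without A17α-MHCKO + NS replicate 1 and 5 without A17α-MHCKO + NS replicate 3. Cox7a1, the heart and muscle form of a cytochrome c oxidase subunit, had 208, 361 and 297 CPM in A17fl/fl + NS and 466, 404 and 412 CPM in A17α-MHCKO + NS hearts (0.57, unadjusted p = 0.0157). Of 41 tested genes of fatty acid and ketone oxidation, 1 was lower with all libraries and 12 without A17fl/fl + NS replicate 1, against 6.53% and 5.65% of all genes. There were 4 lower and 1 higher without A17α-MHCKO + NS replicate 1, and 2 lower and 3 higher without A17fl/fl + NS replicate 2 and without A17fl/fl + NS replicate 3. The gene called with all libraries was Bdh1, which oxidizes the ketone body β-hydroxybutyrate, with 158, 55.5 and 169 against 18.7, 51.2 and 19.5 CPM (-2.09, unadjusted p = 0.00357). Acsl1, which activates fatty acids, had 227, 684 and 908 against 469.8, 512 and 466 CPM, and its groups overlapped. Of 30 tested genes of glucose metabolism, 7 were lower and 3 higher with all libraries, against 6.53% and 3.61% of all genes. There were 3 and 1 without A17fl/fl + NS replicate 1 (background 5.65% and 4.58%), and 2 and 2 without A17α-MHCKO + NS replicate 2 (5.14% and 3.14%). Of 15 mitochondrially encoded genes, 0 differed at the unadjusted limit with all libraries and 6 were lower without A17fl/fl + NS replicate 1 (background 5.65%). At the adjusted limit, with all libraries, edgeR's quasi-likelihood test and voom called 0 in these 4 lists. DESeq2 and the likelihood ratio test each called 1 gene there, lower, of fatty acid and ketone oxidation.

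Genes of the atrium, of fat and of the outer heart surface differed between A17fl/fl libraries. Sln, Myl7 and Myl4 are expressed in the atrium of the adult heart. Myl7 had 0, 1019 and 0.0626 CPM in A17fl/fl + NS and 464, 769 and 666 CPM in A17α-MHCKO + NS hearts, Sln 0, 391.6 and 0 against 212, 365 and 343 CPM, and Myl4 1.56, 1363 and 1.38 against 577, 1131 and 1016 CPM. All A17α-MHCKO libraries and A17fl/fl + NS replicate 2 were high and A17fl/fl + NS replicates 1 and 3 were at or near 0, so that the groups overlapped. The study describes the samples as left ventricular, and how much atrium each sample held was not measured. Of 16 tested atrial genes 1 was higher at an unadjusted p under 0.05 with all libraries and without A17fl/fl + NS replicate 1 (Gja5 in both), and 0 passed the adjusted limit with edgeR's quasi-likelihood test, DESeq2, the likelihood ratio test or voom. Without A17fl/fl + NS replicate 2, 13 were higher at the unadjusted limit (background 8.85%) and 8 at the adjusted one (background 2.01%), with adjusted p = 5.93e-05 for Myl7, 3.54e-04 for Myl4 and 3.08e-04 for Sln. Without that replicate also 8 of 22 tested adipocyte genes and 5 of 15 mesothelial genes were higher at the adjusted limit. Adipoq, the fat hormone adiponectin, had 0.289, 6.702 and 0 against 2.16, 7.17 and 9.07 CPM, and Msln, mesothelin of the outer heart surface, 0, 25.01 and 0.0626 against 2.04, 17.1 and 16.6 CPM, again with A17fl/fl + NS replicate 2 on the side of the A17α-MHCKO libraries.

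Over the whole table the genotype differences after NS and after DOX were set side by side. Of the 482 genes that met the study's limits after NS, 246 (51.0%) had the same sign after DOX, against 50.2% of all tested genes, and 5 (1.04%) had an unadjusted p under 0.05 with that sign, against 1.65% of all. The log2 fold change after DOX was 0.028 for Ifi27, 0.072 for Irf9, 0.25 for Ifit1, 0.034 for Ciart and 0.11 for Gsta3. Interferon-stimulated genes summed to 1023, 1650 and 1027 CPM in A17fl/fl + DOX and to 854, 982 and 1838 CPM in A17α-MHCKO + DOX hearts. MHC genes summed to 3644, 4360 and 3856 CPM and to 2700, 2760 and 4836 CPM. The highest library of each genotype thus stood well apart for the interferon list within its own group. The interaction of genotype and treatment passed the adjusted limit in 0 of 16101 genes with edgeR's quasi-likelihood test and in 18 with DESeq2, and an unadjusted p under 0.05 in 965 (5.99%).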

How the data were processed

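The samples were 12 RNA libraries, described by the study as left ventricular, in 4 groups of 3. The 6 saline libraries are compared here, and the 6 doxorubicin libraries enter the model and the side-by-side values. The study's methods name a stranded kit for mRNA, paired-end reads and StringTie for counting. The submitters' processing notes name CASAVA 1.8, HISAT2, SAMtools 1.3.1, edgeR and GRCm39. The authors deposited for 53465 genes an unnormalized count and an FPKM per library; 0 columns of sample values were left unused. The FPKM served only for the limit of a mean over 1.

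The analysis used edgeR 4.0.16 in R 4.3.3 (filterByExpr, TMM, glmQLFit over all 4 groups, glmQLFTest, Benjamini-Hochberg), with limma 3.58.1 and DESeq2 1.42.0 as alternatives. Totals of 15950717 to 21725076 counts per library limit what can be seen at 1 CPM or less. Pairs of libraries of a saline group differed by 22.9 to 179 in chi-square per degree of freedom, so that all were counted as separate samples. The fit was checked on simulated counts.

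Named genes were Adam17, Tnf, Tnfrsf1a, Traf3, Map3k7 and Cebpb, for each direction at most 6 genes ranked by size of change, given an adjusted p below 0.05, groups without overlap and mean CPM over 1 (where fewer than 3 passed, up to 3 by smallest p), the same without A17fl/fl + NS replicate 1, fixed markers, and per list the gene with the smallest p with and without that replicate. Some genes that this rule names are not reported here. The 41 lists hold 1106 entries of 1015 distinct genes, and 995 of these genes were matched. Lists and comparison were chosen with earlier results of these data known. Sequences are from RefSeq (GRCm38.p6) and GENCODE M21 (GRCm38), which holds 53274 of the gene identifiers; no coordinate of the authors' GRCm39 files was used. Alternatives were other tests, normalizations and filters, the saline libraries alone, a replicate block and each library left out; the fit with A17fl/fl + NS replicate 2 alone in its group was chosen after seeing the data.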

Additional observations from a re-analysis of the deposited data

How the results depend on the processing

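The number of genes past an adjusted p of 0.05 was 165 with DESeq2 (51 higher, 114 lower), 160 with edgeR's likelihood ratio test (43 and 117), 1 with limma's voom and library weights, 1 with the replicate block, 26 with A17fl/fl + NS replicate 2 alone in its group (7 and 19) and 1 to 672 with a library left out. The study's limits gave 258 genes with voom, 266 with the 6 saline libraries alone, 3 with the adjusted p, 310 with A17fl/fl + NS replicate 2 alone (175 higher, 135 lower) and 254 to 1066 with a library left out. DESeq2 gave a p for 30200 genes, 12471 of them without an adjusted p, and the likelihood ratio test for 16101. The interaction gave 18 genes with DESeq2 and 0 to 81 with a library left out. Of 113 genes followed singly, 61 kept their direction and their side of the adjusted limit under every alternative that kept all replicates, and 4 reversed under at least 1 of them. With voom the log2 fold change turned to -0.079 for Map3k7, 0.089 for Nppb, 0.46 for Col1a1 and 0.86 for Col3a1. With a library left out, log2 fold changes that crossed 0 ran from -0.92 to 0.011 for Tnfrsf1a, -0.17 to 0.17 for Map3k7, -3.86 to 0.14 for Ccl2, -3.91 to 0.10 for Ptgs2, -6.298 to 0.25 for S100a8, -6.16 to 0.27 for S100a9, -1.86 to 0.30 for Nppb, -2.21 to 0.59 for Col1a1, -1.98 to 0.98 for Col3a1, -0.72 to 0.085 for Acsl1, -0.066 to 8.32 for Msln and -0.15 to 0.59 for Myh6. The cause of these moves was not tested. The replicate number did not pair the samples, with correlations of same-numbered deviations of -0.04, 0.12 and -0.07, and the replicate block left 333 genes at the study's limits.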

Other observations

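Some genes outside the gene lists met the study's limits on p and fold change whichever of the 6 libraries was left out. Its FPKM limit was taken over all libraries. They are given here as values, chosen after these were seen, with C3 of the fibroblast list beside them. C7, a complement component that joins the membrane attack complex, had 33.6, 26.4 and 41.4 CPM in A17fl/fl + NS and 11.1, 12.05 and 11.2 CPM in A17α-MHCKO + NS hearts (log2 fold change -1.56, SE 0.28, adjusted p = 0.118 in edgeR). C4b, a complement component of the classical path, had 325, 116 and 307 against 71.7, 100.5 and 104 CPM (-1.44, unadjusted p = 0.001003), and C3, the component shared by all complement paths and a member of the fibroblast list, had 733, 647 and 752 against 218, 511 and 244 CPM (-1.13, unadjusted p = 0.00196). For all 3 the groups did not overlap, and after DOX the log2 fold changes were -0.23, -0.25 and -0.35. Cxcl14, a chemokine of fibroblasts and epithelia, had 138, 20.2 and 56.9 against 8.64, 11.4 and 9.01 CPM (-2.89, adjusted p = 0.119). Sesn3, a sestrin that restrains mTORC1, had 12.1, 32.4 and 24.5 against 3.704, 4.75 and 4.59 CPM (-2.40, adjusted p = 0.172). Pcdh12, a protocadherin of endothelium, was higher in A17α-MHCKO hearts with 8.54, 14.3 and 9.02 against 33.95, 29.7 and 29 CPM (1.54, adjusted p = 0.125). In the endothelial list 4 of 24 tested markers were higher and 2 lower at an unadjusted p under 0.05, against 3.61% and 6.53% of all genes (3 and 1 without A17fl/fl + NS replicate 1). Tek, the angiopoietin receptor TIE2, was among the 4 (65.6, 83.9 and 101 against 114, 114 and 127 CPM, 0.50, unadjusted p = 0.00659).

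Immediate-early genes, which neurons and other cells switch on within minutes of a stimulus, were lower in 16 of 30 cases at an unadjusted p under 0.05, against 6.53% of all genes. There were 8 lower without A17fl/fl + NS replicate 1 (background 5.65%) and 9 without A17α-MHCKO + NS replicate 2 (background 5.14%). At the adjusted limit, with all libraries, there were 0 in edgeR's quasi-likelihood test, 3 with DESeq2, 5 with the likelihood ratio test and 0 with voom. The quasi-likelihood test called 8 lower without A17fl/fl + NS replicate 2, where 4.09% of all genes were called in either direction. Arc, a regulator of synapses, was apart in all 6 libraries, with 10.7, 4.13 and 5.83 against 0.926, 1.47 and 1.05 CPM (-2.57, adjusted p = 0.108, or -2.10 without that replicate). Of 34 tested genes of protein folding and integrated stress 7 were lower and 0 higher at an unadjusted p under 0.05, against 6.53% and 3.61% of all genes. There were 5 lower without A17fl/fl + NS replicate 1 (background 5.65%) and 17 without A17fl/fl + NS replicate 3 (background 10%). Without A17α-MHCKO + NS replicate 1, 3 were lower (background 4.66%). Hspa1b, an inducible HSP70, had 17.4, 36.4 and 18.9 against 6.98, 12.2 and 8.72 CPM (-1.38, unadjusted p = 9.04e-04). Of 24 tested p53 targets 2 were higher and 5 lower, against 3.61% and 6.53% of all genes, and 3 were higher and 2 lower without A17fl/fl + NS replicate 1. There were 3 lower without A17α-MHCKO + NS replicate 1 and without A17α-MHCKO + NS replicate 3. Bbc3, which encodes the proapoptotic protein PUMA, had 6.23, 5.505 and 5.33 against 9.51, 7.38 and 12.5 CPM (0.78, unadjusted p = 0.00322).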
